A study of Rattus norvegicus with 12 samples.

Results

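The 5 circular RNAs novel_circ_0000642, novel_circ_0002212, novel_circ_0002630, novel_circ_0004902 and novel_circ_0009519 were described across the 4 groups of a rat study of electroacupuncture after liver surgery. They were chosen by identifier as node circRNAs that the study lists as lower in operated rats given electroacupuncture than in operated rats left untreated. The node list itself was drawn from differentially expressed circRNAs traced back, through predicted miRNAs, from mRNAs that moved in opposite directions after the operation and after electroacupuncture, and kept those that moved in the direction of the mRNA and against that of the miRNA. They are 5 of 44 node circRNAs on that list and 5 of 21914 circRNAs in the count table. The study's list holds 4 other node circRNAs in the same direction. The difference between treated and untreated operated rats therefore chose the members, and it is given here as a description without a test.

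All animals were male Sprague-Dawley rats, 7 weeks old when bought, and each of the 4 groups was held in restraint for 30 min at the times of treatment. The normal control group (NC) had no operation. The HT group had about 20% of the left liver lobe removed under isoflurane, which the labels call hepatectomy. The HT+EA group had the same operation with electroacupuncture, a weak current passed through needles at the Zusanli and Sanyinjiao acupoints, given 24 h before the operation and again straight after it. The HT+SEA group, the sham, was operated on too and had needles inserted without current. Tissue was taken 24 h after the last session from the hypothalamic region abbreviated PVN, which the methods call the periventricular nucleus. The sample titles carry the abbreviation PVN, and the labels otherwise give only brain. Each group had 3 libraries, 12 in all, and p-values measure the spread between these libraries. The methods divide 12 rats into the 4 groups. They add that the brain samples shared a batch but did not come from the same animal, since a rat gave limited tissue. The labels do not say which rat gave each library. The table names circRNAs by running number with no host gene, so the tissue could not be checked against marker genes, and fewer cells of a type cannot be told apart from less RNA per cell.

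A circRNA is made when the end of an exon is spliced back to the start of an exon that lies upstream, which closes the RNA into a loop without free ends. Such loops are resistant to exonucleases and many are abundant in brain. Some carry sites that pair with the seed of a microRNA, the stretch near its 5′ end that finds target mRNAs, and a network of circRNAs, miRNAs and mRNAs is drawn from predicted pairings of this kind.

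The network puts 5 miRNAs and 23 different mRNAs with the 5 circRNAs. The pairings were predicted from sequence and were not tested here, and no miRNA or mRNA level was analysed here, so the partners are given by name. The mature miRNAs are shown because they are the only link between the circRNAs and the mRNAs in that network. Capitals mark the seed, bases 2 to 8 counted from the 5′ end. All 5 names matched an entry of RefSeq on the rat assembly GRCr8.
rno-miR-205: uCCUUCAUuccaccggagucugu
rno-miR-125a-5p: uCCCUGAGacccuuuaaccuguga
rno-miR-351-5p: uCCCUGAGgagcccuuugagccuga
rno-miR-296-3p: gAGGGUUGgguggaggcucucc
rno-miR-187-5p: aGGCUACAacacaggacc

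The mature rno-miR-205 lies at chr13:107564588-107564610 on the minus strand, and it is the partner of novel_circ_0000642 and of novel_circ_0002630. Its mRNAs in the network are Grcc10 and Snx29, the latter a member of the sorting nexin family, which acts in endosomal traffic. The partners of novel_circ_0002212 are rno-miR-125a-5p at chr1:67350689-67350712 on the plus strand and rno-miR-351-5p at chrX:137725157-137725181 on the minus strand. Both carry the seed CCCUGAG, and they share the mRNAs Map3k10, a kinase upstream of JNK signalling, and LOC103689975, an integrator complex subunit-like gene. The network gives rno-miR-351-5p further mRNAs, among them Shank3, a scaffold of the postsynaptic density, Sncb (beta-synuclein), Cttn (cortactin, an actin regulator), Rgs3, a regulator of G-protein signalling, Elovl6, a fatty acid elongase, and again Snx29. In all, 12 mRNAs stand behind novel_circ_0002212, the most of any of the 5.

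The partner of novel_circ_0004902 is rno-miR-296-3p at chr3:183470079-183470100 on the minus strand, with 9 mRNAs. They include Ngfr, a neurotrophin receptor, Ramp3, an accessory protein of calcitonin family receptors, Cntnap1, a protein of the axon beside the node of Ranvier, Klc2, a kinesin light chain, Mylk, the myosin light chain kinase, and LOC108348172, named for proSAAS, a neuroendocrine peptide precursor. The partner of novel_circ_0009519 is rno-miR-187-5p at chr18:16006005-16006022 on the minus strand, with 1 mRNA, LOC103693608. The network thus joins novel_circ_0000642 to novel_circ_0002630 through 1 miRNA, and both to novel_circ_0002212 through the mRNA Snx29, while novel_circ_0004902 and novel_circ_0009519 share no partner with any other of the 5.

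The table held counts of circRNA reads, with totals of 134903 (HT replicate 3) to 360524 (HT+EA replicate 2) per library and 8679 to 13945 circRNAs listed in each. It held no value of 1, so a listed 0 stands for under 2 reads or for a circRNA left uncalled there. CPM is the usual depth-scaled count, here taken over the tested circRNAs of a library, with the library size scaled by edgeR's TMM method. The filter on low counts left 4838 circRNAs for testing, and all 5 node circRNAs were among them. No lengths of circRNAs were found in the sources used here, so CPM was compared between libraries and not between circRNAs. The mean count over the 12 libraries was 12.2 for novel_circ_0000642, 10.8 for novel_circ_0002212, 54.5 for novel_circ_0002630, 26.2 for novel_circ_0004902 and 78 for novel_circ_0009519. The first and the second of these thus rested on few reads.

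In HT+EA replicate 1 to 3 novel_circ_0000642 had counts of 0, 13 and 7, or 0, 42.4 and 37.0 CPM. In HT the counts were 16, 17 and 14, or 99.4, 79.6 and 114 CPM. Every HT+EA library lay below every HT library. In NC the counts were 18, 9 and 13 (91.2, 45.3 and 59.1 CPM), and in HT+SEA they were 14, 18 and 7 (63.5, 115 and 41.3 CPM). The lowest NC library lay just above the highest HT+EA library and the lowest HT+SEA library just below it, and both groups reached up into the range of HT. The mean was 65.2 ± 23.5 CPM in NC, 97.7 ± 17.3 in HT, 26.5 ± 23.1 in HT+EA and 73.1 ± 37.6 in HT+SEA (SD, n = 3 each). The order was HT, HT+SEA, NC and HT+EA, and libraries of HT, HT+SEA and NC overlapped. At the level of the other HT+EA libraries, replicate 1 would have held about 7.42 counts where 0 was listed.

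A different order was seen for novel_circ_0002212, the circRNA with the fewest reads. Its HT counts were 25, 17 and 13, or 155, 79.6 and 106 CPM, and its HT+EA counts were 8, 14 and 4, or 42.8, 45.6 and 21.2 CPM. In NC 10, 13 and 11 counts gave 50.6, 65.4 and 49.97 CPM, and in HT+SEA 0, 8 and 7 counts gave 0, 50.9 and 41.3 CPM. The HT libraries were all higher than the libraries of the other 3 groups. The mean was 114 ± 38.4 CPM in HT, 55.3 ± 8.74 in NC, 36.5 ± 13.4 in HT+EA and 30.7 ± 27.0 in HT+SEA (SD, n = 3 each). The sham group was therefore as low as the electroacupuncture group, with overlapping libraries. The 0 in HT+SEA replicate 1 stood where the other sham libraries gave an expected 10.2 counts. The 4 counts of HT+EA replicate 3 had a 95% exact Poisson interval of 1.09 to 10.2 counts. Such intervals cover at most counting error and leave out the spread between libraries. They also treat reads as independent molecules, which could not be checked.

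With more reads, novel_circ_0002630 was listed in all 12 libraries. It had 63, 85 and 34 counts in HT (391, 398 and 277 CPM) and 38, 64 and 43 counts in HT+EA (203, 209 and 227 CPM). The HT+EA libraries lay close together, at 213 ± 12.7 CPM (SD, n = 3), below the HT mean of 355 ± 67.8 CPM (SD, n = 3). In HT+SEA 63, 58 and 61 counts gave 286, 369 and 360 CPM, with a mean of 338 ± 45.7 (SD, n = 3), inside the range of HT. In NC 57, 54 and 34 counts gave 289, 272 and 154 CPM, with a mean of 238 ± 73.1 (SD, n = 3). NC replicate 3 was the lowest of all 12 libraries, so NC lay on both sides of HT+EA.

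In HT+EA novel_circ_0004902 had 14, 0 and 9 counts, or 74.9, 0 and 47.6 CPM, with a mean of 40.8 ± 37.9 (SD, n = 3). These were the lowest of the 12 libraries for this circRNA. In HT it had 16, 36 and 27 counts (99.4, 169 and 220 CPM, mean 163 ± 60.6), and in NC 21, 28 and 40 counts (106, 141 and 182 CPM, mean 143 ± 37.7, SD, n = 3 each). In HT+SEA 58, 43 and 22 counts gave 263, 274 and 130 CPM, with the highest group mean, 222 ± 80.3 (SD, n = 3). Libraries of NC, HT and HT+SEA overlapped. The 0 was in HT+EA replicate 2, the largest library of all, where the other HT+EA libraries gave an expected 18.8 counts.

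The largest counts belonged to novel_circ_0009519. In HT+EA 55, 94 and 55 counts gave 294, 306 and 291 CPM, a mean of 297 ± 8.09 (SD, n = 3). In HT 71, 98 and 71 counts gave 440.97, 459 and 579 CPM, a mean of 493 ± 75.0 (SD, n = 3). In NC 84, 74 and 121 counts gave 425, 372 and 550 CPM (mean 449 ± 91.0), and in HT+SEA 106, 50 and 57 counts gave 481, 318 and 336 CPM (mean 378 ± 89.1, SD, n = 3 each). All HT+EA libraries lay below all 9 others, and the lowest sham library was only slightly above them. NC, HT and HT+SEA overlapped.

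**Figure D1:**
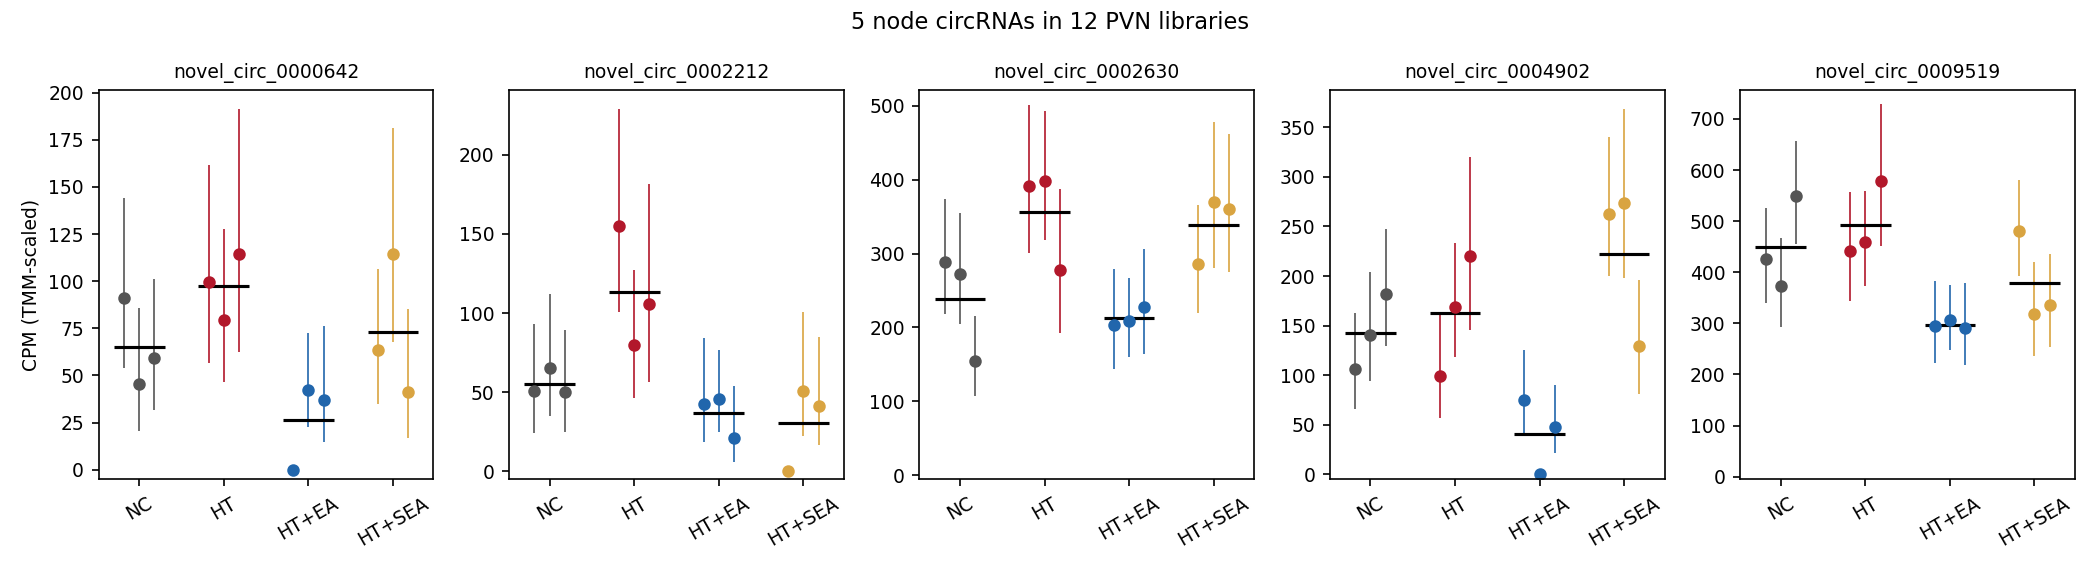
TMM-scaled CPM (y axis, linear, a scale of its own in each panel) of the 5 node circRNAs in each of the 12 libraries, by group (x axis). Points are libraries in the order of replicate 1 to 3, vertical lines are exact Poisson 95% intervals of the counts (none is drawn for a library listed at 0), and the black bar is the group mean. In each panel the 3 HT+EA points lie below the 3 HT points, and 3 panels hold 1 point at 0.

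The HT+EA libraries were below the HT libraries without overlap for 5 of the 5, where 5.29% of the 4838 tested circRNAs did the same. Since this difference chose the members, nothing is read from that count. In the fit of all 12 libraries the log2 fold change of HT+EA against HT was −1.77 (SE 0.65) for novel_circ_0000642, −1.59 (SE 0.65) for novel_circ_0002212, −0.74 (SE 0.26) for novel_circ_0002630, −2.09 (SE 0.73) for novel_circ_0004902 and −0.72 (SE 0.22) for novel_circ_0009519. The median of the 5 was −1.59, and the median of all tested circRNAs was 0.02. The 3 larger differences belonged to circRNAs with fewer reads and wider errors, and 2 of these hold an HT+EA library listed at 0. Leaving out 1 HT+EA library, the value of novel_circ_0000642 was −1.26 without replicate 1, listed at 0, and −2.33 without replicate 2, and that of novel_circ_0004902 was −1.39 without replicate 2, listed at 0, and −2.96 without replicate 1. Without HT replicate 3, the smallest library, the values in the same order were −1.65, −1.63, −0.89, −1.84 and −0.60.

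The 4 other node circRNAs of the same direction were read in the same way. The group means of novel_circ_0029061 were 108 CPM in NC, 156 in HT, 64.4 in HT+EA and 118 in HT+SEA, a log2 fold change of −1.27 (SE 0.32) for HT+EA against HT. Those of novel_circ_0030155 were 342, 461, 271 and 482 CPM in the same order of groups, a log2 fold change of −0.76 (SE 0.31). Both had their lowest mean in HT+EA. They were listed for being lower in HT+EA than in HT, as were the 5, so nothing is read from this. The other 2 did not pass the filter on low counts. Of these, novel_circ_0000119 was listed in HT replicate 1 (10 counts) and HT replicate 3 (15 counts) alone. The last, novel_circ_0007408, had 4, 6 and 3 counts in HT, 8, 3 and 0 in NC, 2, 0 and 4 in HT+SEA, and was listed at 0 in each HT+EA library. The network gives novel_circ_0007408 the same miRNA as novel_circ_0000642 and novel_circ_0002630, and novel_circ_0030155 that of novel_circ_0009519.

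**Figure D2:**
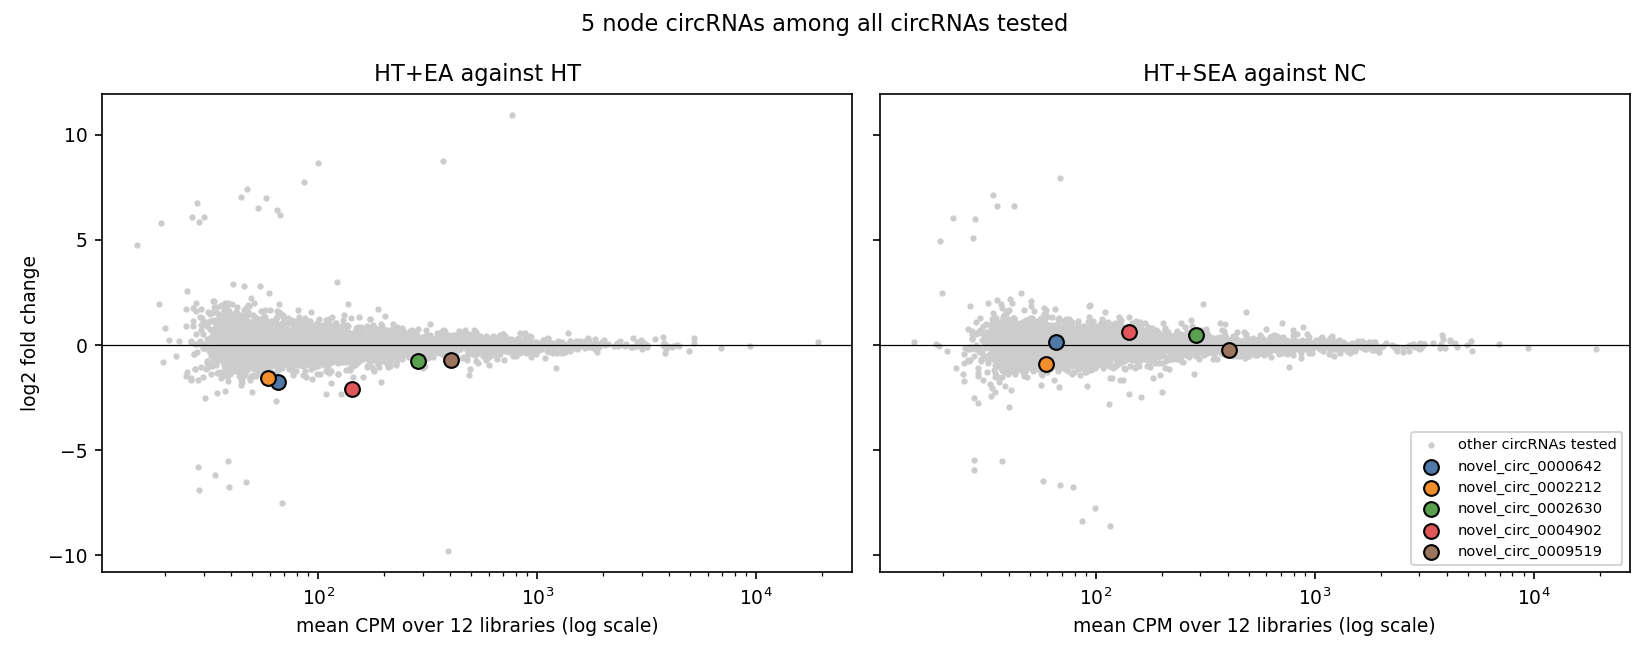
log2 fold change (y axis) against mean CPM over the 12 libraries (x axis, log scale) for the 4838 tested circRNAs, for HT+EA against HT on the left and HT+SEA against NC on the right. Grey points are other circRNAs and coloured points the 5 node circRNAs, which lie between −2.09 and −0.72 on the left, the contrast that chose them, and between −0.92 and 0.63 on the right.

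The direction that chose the 5 was read between HT and HT+EA, so the sham against the normal control is the only pair without either of these groups. The NC group did enter the node list through the mRNAs, which were picked in part by HT against NC, so the NC libraries are not wholly independent of the choice. This comparison asks whether operated and needled rats differed from rats without an operation. None of the 5 was called in edgeR's quasi-likelihood test at an unadjusted p below 0.05, where 143 of the 4838 (2.96%) were, 82 lower (1.69%) and 61 higher (1.26%) in HT+SEA. After Benjamini-Hochberg adjustment no circRNA was called (0.0%), and the smallest adjusted p of any circRNA, and that of each of the 5, was 0.9995. DESeq2 called 99 and limma-voom 192 at an unadjusted p below 0.05, and both called 0 after adjustment.

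The log2 fold change of HT+SEA against NC was closest to the threshold for novel_circ_0002630, at 0.50 (SE 0.26, 95% interval −0.06 to 1.06). For novel_circ_0002212 it was −0.92 (SE 0.71, interval −2.46 to 0.62; −0.26 without HT+SEA replicate 1, listed at 0, and −1.53 without HT+SEA replicate 2), and for novel_circ_0004902 it was 0.63 (SE 0.63, interval −0.74 to 2.004). For novel_circ_0009519 it was −0.24 (SE 0.22, interval −0.72 to 0.24), and for novel_circ_0000642 it was 0.15 (SE 0.61, interval −1.16 to 1.47). No difference was thus detected for any of the 5, and for 4 of the 5, all but novel_circ_0009519, the interval reaches past 1 on the log2 scale, a 2-fold difference, in at least 1 direction. With limma-voom, and with edgeR without NC replicate 1, novel_circ_0002630 passed an unadjusted p of 0.05 (log2 fold change 0.54 and 0.67), but not an adjusted one. The median of the 5 was 0.15 and 2 of 5 were lower, beside a median of −0.00 and 50.4% lower over all tested circRNAs. None of the 5 had sham and NC libraries apart without overlap, below or above, where 4.71% of circRNAs did in each direction. In data simulated for this comparison, 4504 circRNAs were tested, of which 88 held a 2-fold and 93 a 4-fold change. The test called 55.7% and 90.3% of these at an unadjusted p below 0.05, and 10.2% and 48.4% at an adjusted p below 0.05. Changed circRNAs lost to the filter were not counted. Counts were drawn from the spread fitted here, with only counts of 1 set to 0. The rates pool all levels, so they do not give the power for members with few reads or a library listed at 0.

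The remaining contrasts each hold a group that chose the members and share it with the contrast of choice, so their values are given side by side without a test. For HT against NC, operated against unoperated rats, the log2 fold change was 0.57 (SE 0.60) for novel_circ_0000642, 1.02 (SE 0.63) for novel_circ_0002212, 0.59 (SE 0.26) for novel_circ_0002630, 0.17 (SE 0.65) for novel_circ_0004902 and 0.13 (SE 0.22) for novel_circ_0009519. All HT libraries lay above all NC libraries for 1 of the 5, novel_circ_0002212, where 4.4% of tested circRNAs did so. Leaving out single libraries moved novel_circ_0004902 between −0.09 (without HT replicate 3) and 0.41 (without HT replicate 1). It moved novel_circ_0009519 between −0.00 (without HT replicate 3) and 0.29 (without NC replicate 3). The HT and NC libraries of these 2 overlapped, and the sign of the difference depended on single libraries.

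For the sham against HT, the log2 fold change was −1.94 (SE 0.69) for novel_circ_0002212, whose libraries did not overlap, as was so for 1 of the 5 and for 4.57% of tested circRNAs. It was −0.41 (SE 0.60) for novel_circ_0000642, −0.08 (SE 0.26) for novel_circ_0002630, 0.46 (SE 0.64) for novel_circ_0004902 and −0.37 (SE 0.22) for novel_circ_0009519. For novel_circ_0002212 it was −1.28 without HT+SEA replicate 1, the library listed at 0, and −2.54 without HT+SEA replicate 2. Apart from novel_circ_0002212, the sham libraries overlapped those of untreated operated rats. The HT libraries that entered this comparison also chose the members.

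For electroacupuncture against the sham, which differ by the current, the log2 fold change was −2.55 (SE 0.72) for novel_circ_0004902, −1.35 (SE 0.66) for novel_circ_0000642, −0.66 (SE 0.26) for novel_circ_0002630 and −0.35 (SE 0.22) for novel_circ_0009519. Leaving out single libraries moved novel_circ_0004902 between −3.41 (without HT+EA replicate 1) and −1.85 (without HT+EA replicate 2, listed at 0), and novel_circ_0000642 between −1.92 (without HT+EA replicate 2) and −0.83 (without HT+EA replicate 1, listed at 0). For novel_circ_0002212 it was 0.36 (SE 0.73), and −0.30 and 0.96 without HT+SEA replicate 1, the library listed at 0, and HT+SEA replicate 2. The HT+EA libraries lay below the sham libraries without overlap for 3 of the 5, novel_circ_0002630, novel_circ_0004902 and novel_circ_0009519, beside 6.08% of tested circRNAs. The HT+EA libraries that entered this count are those that chose the members.

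For electroacupuncture against NC, the log2 fold change was −1.92 (SE 0.73) for novel_circ_0004902, −1.20 (SE 0.65) for novel_circ_0000642, −0.60 (SE 0.22) for novel_circ_0009519, −0.56 (SE 0.67) for novel_circ_0002212 and −0.16 (SE 0.26) for novel_circ_0002630. For 4 of the 5 the HT+EA libraries lay below the NC libraries without overlap, beside 5.08% of tested circRNAs. The exception was novel_circ_0002630, whose value was 0.01 without NC replicate 1. The HT+EA libraries that entered the count of 4 are those that chose the members, so nothing is read from it. Among the 4, the gap was narrow for novel_circ_0000642 (NC replicate 2 at 45.3 CPM, HT+EA replicate 2 at 42.4). It was also narrow for novel_circ_0002212 (NC replicate 3 at 49.97 CPM, HT+EA replicate 2 at 45.6). In both cases the exact Poisson intervals of these libraries overlapped. With only HT+EA and NC fitted, both circRNAs failed the filter on low counts. Without the HT+EA library listed at 0, the value of novel_circ_0004902 was −1.23 and that of novel_circ_0000642 −0.70, while without HT+EA replicate 1 that of novel_circ_0004902 was −2.80 and without HT+EA replicate 2 that of novel_circ_0000642 was −1.78.

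**Figure D3:**
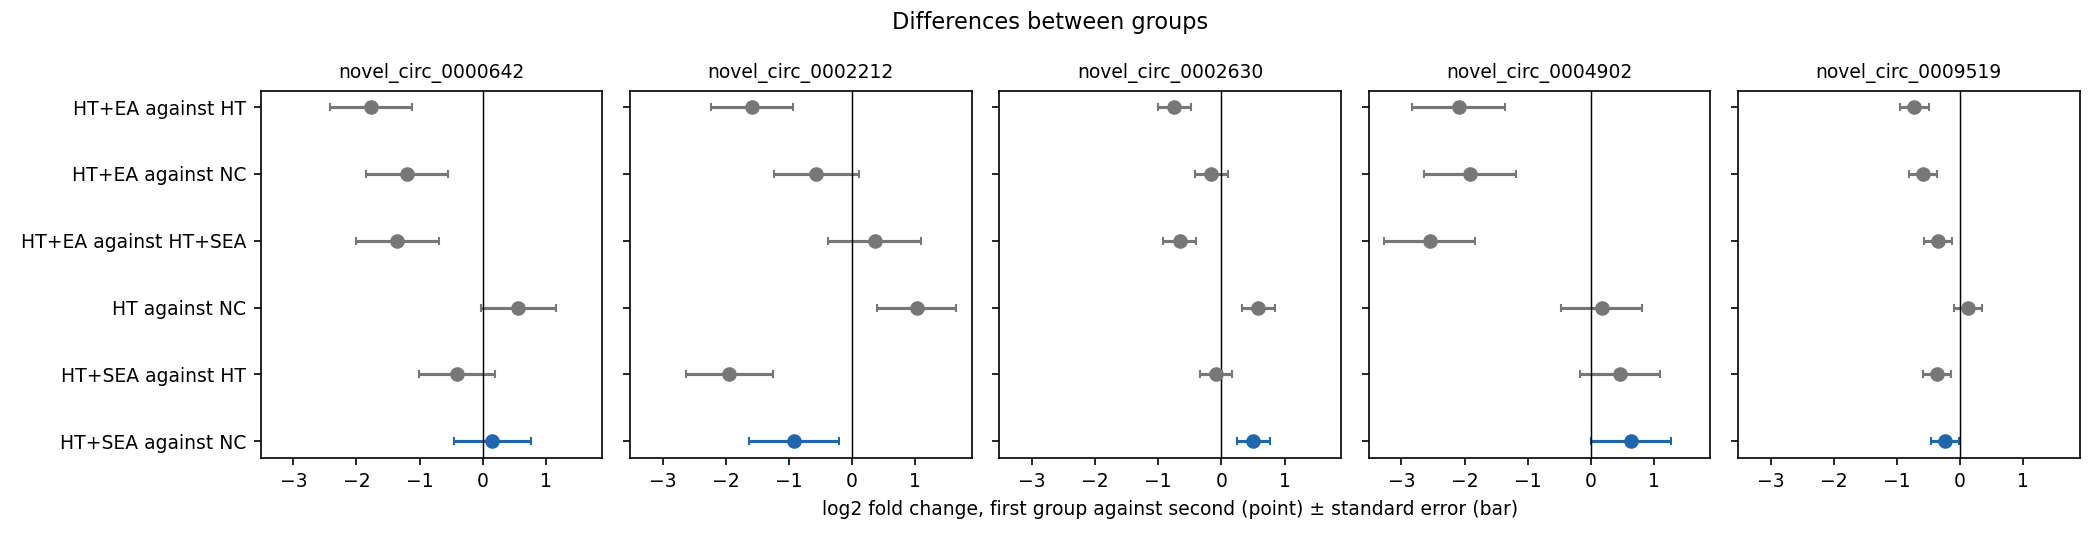
log2 fold change (x axis, points) ± standard error (bars) of the 5 node circRNAs in 6 contrasts of the 4 groups (y axis), from edgeR's fit of 12 libraries. The contrast in blue, HT+SEA against NC, is the only one tested. In the top row, HT+EA against HT, each point is left of 0 by the choice of the circRNAs, and in the third row novel_circ_0002212 is the only circRNA right of 0.

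The spread within groups is given as the coefficient of variation of CPM over 3 libraries. It ran over the 4 groups from 2.72% (HT+EA) to 23.6% (HT+SEA) for novel_circ_0009519 and from 5.98% (HT+EA) to 30.7% (NC) for novel_circ_0002630. These HT+EA counts scattered less than Poisson counting error gives on average. Their chi-square per degree of freedom was 0.055 for novel_circ_0009519 and 0.149 for novel_circ_0002630. The low values over 3 libraries are thus not read as a smaller spread between rats. For the 3 circRNAs with a library listed at 0, the highest value belonged to the group with that library: 87.2% in HT+EA for novel_circ_0000642, 88.0% in HT+SEA for novel_circ_0002212 and 92.8% in HT+EA for novel_circ_0004902. Their lowest values were 17.8% (HT), 15.8% (NC) and 26.4% (NC), in the same order. The fitted biological coefficient of variation over all groups was 18.9% for novel_circ_0009519, 20.3% for novel_circ_0002630, 37.3% for novel_circ_0000642, 38.8% for novel_circ_0002212 and 51.3% for novel_circ_0004902, beside 34.6% as the common value of all tested circRNAs.

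Summed over the 5, the level was 615, 603 and 624 CPM in the HT+EA libraries (614 ± 10.8, SD, n = 3) and 1186, 1184 and 1296 CPM in the HT libraries (1222 ± 64.2, SD, n = 3). It was 962, 896 and 995 CPM in NC (951 ± 50.4, SD, n = 3) and 1093, 1127 and 908 CPM in HT+SEA (1043 ± 118, SD, n = 3). The HT libraries were the highest and the HT+EA libraries the lowest, as the choice of the 5 leads to, and NC and HT+SEA overlapped between them. The sums of the 3 HT+EA libraries lay close together, although novel_circ_0000642 was not listed in replicate 1 and novel_circ_0004902 not in replicate 2. In HT+EA, novel_circ_0002630 and novel_circ_0009519 scattered less than counting error gives on average, so nothing is read from this closeness. Most of each sum came from novel_circ_0002630 and novel_circ_0009519, the members with the most reads. Together they made up 80.9%, 85.4% and 83.1% in HT+EA replicate 1 to 3, and 61.0% to 76.6% in the other groups.

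**Figure D4:**
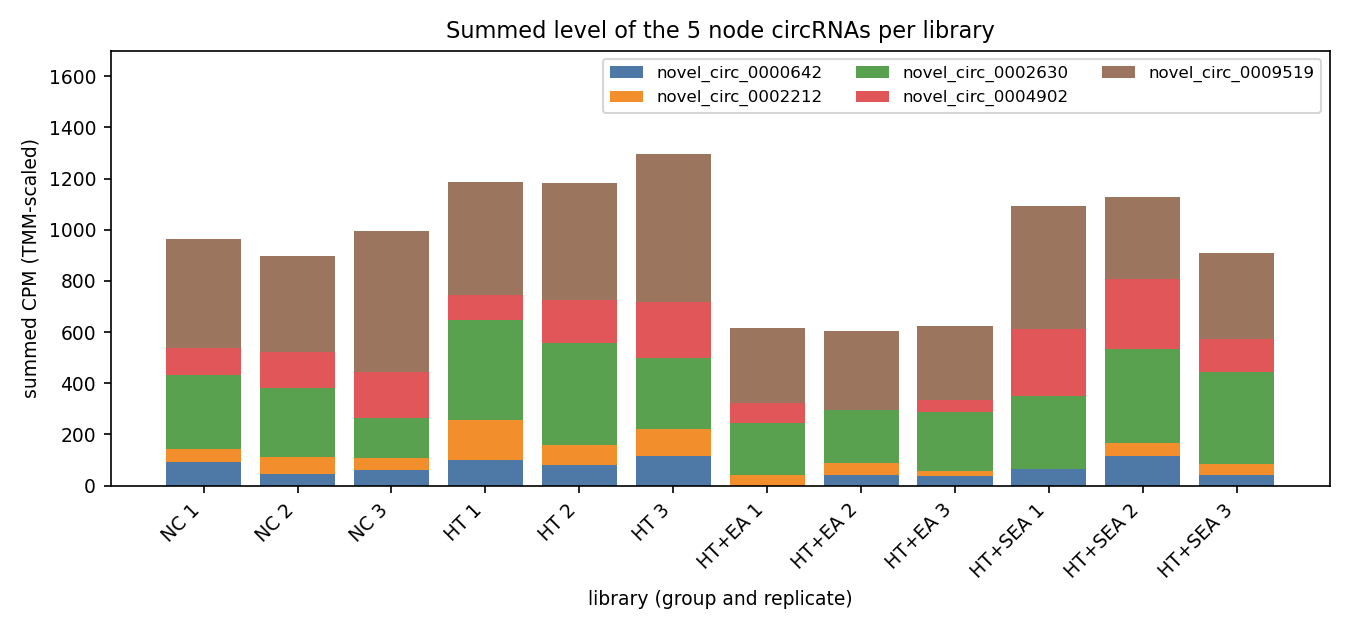
Summed TMM-scaled CPM of the 5 node circRNAs (y axis, from 0) in each of the 12 libraries (x axis), stacked by circRNA. The HT+EA bars reach 603 to 624 CPM, the NC bars 896 to 995, the HT+SEA bars 908 to 1127 and the HT bars 1184 to 1296.

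Across the 12 libraries the members followed each other loosely. Over their 10 pairs, Pearson's r of log2 CPM ran from −0.03 for novel_circ_0002212 with novel_circ_0004902 to 0.57 for novel_circ_0000642 with novel_circ_0009519, and Spearman's rho from 0.20 to 0.69. The pair that shares a miRNA in the network, novel_circ_0000642 and novel_circ_0002630, had an r of 0.50 and a rho of 0.60. All pairs share low HT+EA libraries by choice, and all share the same library depths, so these values describe the libraries only.

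Among the tested circRNAs that are not on the node list, those with the pattern most like each member over the 12 libraries were named by Pearson's r of log2 CPM. They were novel_circ_0039691 (r = 0.92) and novel_circ_0024076 (r = 0.92) for novel_circ_0000642. The first of them had group means of 192 CPM in NC, 269 in HT, 77.1 in HT+EA and 236 in HT+SEA, the same order of groups. For novel_circ_0002212 they were novel_circ_0010819 and novel_circ_0034854 (r = 0.91 each). Although alike in pattern, novel_circ_0010819 differed little in size between groups, with means of 836 CPM in NC, 862 in HT, 764 in HT+EA and 698 in HT+SEA. For novel_circ_0002630 they were novel_circ_0010861 (r = 0.86) and novel_circ_0030664 (r = 0.85), with HT+EA means of 100.5 and 109 CPM, the lowest of their groups. For novel_circ_0004902 they were novel_circ_0037381 (r = 0.92) and novel_circ_0040868 (r = 0.91), with HT+EA means of 70.5 and 78.0 CPM, again the lowest. For novel_circ_0009519 they were novel_circ_0025082 (r = 0.89), with a mean of 325 CPM in HT+EA and 382 to 445 CPM in the other groups, and novel_circ_0019120 (r = 0.82). The lowest count over the 12 libraries was 0 for novel_circ_0039691, novel_circ_0024076, novel_circ_0034854 and novel_circ_0040868. A library listed at 0 can weigh heavily in their r. All of these circRNAs were picked as the highest correlations among all tested circRNAs, over 12 libraries, and they are a description.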

How the data were processed

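Total RNA was made into strand-specific libraries and sequenced on Illumina instruments by a company, Novo Gene Biotech, and low-quality reads were removed. The submitters' processing notes list HISAT2, featureCounts and the human builds GRCh38 and hg38, whereas the methods name a rat assembly, and the samples are labelled as rat. The series' design text speaks of mice. The program that called circRNAs is not given in the sources used here. Raw read counts of 21914 circRNAs in 12 libraries were deposited, under running identifiers without coordinates or host genes. The 12 TPM columns beside them were not used, since their headers do not all fit the labels.

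Counts of all 12 libraries were fitted with edgeR 4.0.16 in R 4.3.3 (TMM, filterByExpr at its default minimum of 10 counts and total of 15, glmQLFit and glmQLFTest, two-sided, 4 groups). The filter left 4838 circRNAs (22.1%) with 85.5% to 88.6% of the counts of a library, and p-values were adjusted over them by Benjamini-Hochberg. Standard errors came from the quasi-likelihood F statistics and 95% intervals from the t distribution of the fit. Likeness used log2 CPM with a prior count of 2. Libraries held 134903 to 360524 counts, which are reads of called circRNAs and not the sequencing depth. Alternatives were median-ratio size factors, library totals, no filter, a mean count of at least 2, DESeq2 1.42.0, limma 3.58.1 (voom), only the groups compared, a replicate block, and leaving out each library. The fit was tested on simulated data.

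The members, and the lists beside them, were chosen with earlier results of these data known. Named are the 5 node circRNAs, the 4 other node circRNAs listed as lower, the 2 circRNAs most like each of the 5 outside the node list, and the network partners.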

Additional observations from a re-analysis of the deposited data

How the results depend on the processing

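Over 20 alternatives to each value, the 5 log2 fold changes of HT+EA against HT kept their negative sign. All HT+EA libraries stayed below all HT libraries for 5 of 5 under each scaling and each left-out library. This contrast chose the members, so neither result is support for them. Leaving out a library of groups already apart cannot make them overlap, except through small changes in scaling. When libraries were left out one at a time, the log2 fold change of HT+EA against HT ran from −2.33 to −1.26 for novel_circ_0000642, −1.81 to −1.29 for novel_circ_0002212, −0.89 to −0.65 for novel_circ_0002630, −2.96 to −1.39 for novel_circ_0004902 and −0.80 to −0.60 for novel_circ_0009519. With limma-voom, these values that involve a library listed at 0 moved by over 1 on the log2 scale: −4.14 for novel_circ_0004902 in HT+EA against HT, −4.61 against HT+SEA and −4.02 against NC, and for novel_circ_0002212 −2.15 for the sham against NC, −3.09 for the sham against HT and 1.67 for HT+EA against the sham.

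In HT+SEA against NC, novel_circ_0000642 turned to −0.03 without NC replicate 2 and to −0.30 without HT+SEA replicate 2, in a range of −0.30 to 0.46. With limma-voom novel_circ_0002630 passed an unadjusted p of 0.05, at 0.54 (adjusted p = 0.937), and likewise without NC replicate 1, at 0.67 (edgeR adjusted p = 0.999), the top of a left-out range of 0.25 to 0.67. The value of novel_circ_0002212 ran from −1.53 without HT+SEA replicate 2 to −0.26 without HT+SEA replicate 1. The number of circRNAs called at an unadjusted p was 529 without a filter and 321 with a mean count of at least 2, and 138 to 219 without single libraries, the latter without NC replicate 2. At an adjusted p it was 21 without a filter, 1 with only these groups fitted and 0 to 1 without single libraries, with 1 in the absence of HT+SEA replicate 1 or 3, NC replicate 1 or HT+EA replicate 1. The cause of these moves was not tested.

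Pairing by the replicate numbers in the labels was checked on each library's deviations from its group mean, in log2 CPM of the tested circRNAs. Between libraries of different groups, these deviations had correlations of −0.0883 to 0.104 for the same number and −0.0915 to 0.110 for other numbers. No pairing by number was thus seen. With a replicate block, HT+SEA against NC had 126 circRNAs at an unadjusted p and 0 at an adjusted p, novel_circ_0002630 was at 0.53, and no call on the 5 changed. In the fits of only the groups compared, novel_circ_0000642 and novel_circ_0002212 did not pass the filter for HT+EA against HT+SEA and against NC and have no value. Counts of 25 or fewer in a library limit what can be seen for them.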
